A study of Mus musculus with 12 samples.

Results

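Syndecans and glypicans are the 2 main families of cell surface proteins that carry heparan sulfate, and 9 of their genes were read from a table of 29462 genes: the 4 syndecans Sdc1, Sdc2, Sdc3 and Sdc4 and the 5 glypicans Gpc1, Gpc2, Gpc3, Gpc4 and Gpc6. They were chosen by gene symbol, with the highest-mean row taken for a symbol that stands more than once. RNA came from primary aortic smooth muscle cells of CSE knockout mice (KO, 6 libraries) and of C57BL/6J mice (WT, 6 libraries). The knockout is global and removes cystathionine gamma-lyase, abbreviated CSE, a hydrogen sulfide-producing enzyme encoded by Cth. The cells of all 12 libraries, KO and WT alike, received angiotensin II at 1 uM for 24 h, so the comparison is KO against WT under angiotensin II and no untreated cells were analysed here. The labels give neither the age of the mice nor a link of each library to an animal or culture of its own, so the spread behind each p-value is that of the libraries and may be technical.

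Syndecans cross the membrane and end in a short cytoplasmic tail, through which they bind PDZ proteins, protein kinase C and the actin cytoskeleton. Glypicans have no tail and are held at the outer leaflet of the membrane by a glycosylphosphatidylinositol anchor. The heparan sulfate chains of both bind growth factors, morphogens, chemokines and matrix proteins, and present them to their receptors or hold them back. In vessel wall cells Sdc4 is known from focal adhesions and Sdc1 and Gpc1 as co-receptors for heparin-binding growth factors.

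In KO cells the glypicans Gpc1 and Gpc4 were 4.66-fold and 5.37-fold higher than in WT cells, and the syndecans Sdc2 and Sdc3 2.45-fold and 1.93-fold higher, as ratios of mean FPKM (fragments relative to gene model length and to all fragments mapped in that library). Sdc2 was at 2.87 to 3.24 times the WT mean in KO replicates 1 to 4, but at 1.22 and 1.07 times in KO replicates 5 and 6. Sdc1 was 1.47-fold and Gpc6 3.95-fold lower in KO. Sdc4 did not pass the test, Gpc2 was detected in KO libraries and listed at 0 in WT libraries, and Gpc3 was at or near 0 throughout. Sdc4 took the place of Sdc1 as the most abundant syndecan, and the summed glypican level was 0.256 times the summed syndecan level in KO, against 0.062 times in WT.

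Before the single genes, some facts of the libraries bear on all of them. KO replicates 5 and 6 stood apart from KO replicates 1 to 4 in 7 of the 9 genes, and each difference fitted with limma is given with and without them. Mki67, a gene of dividing cells, was at 31.46 and 119.95 FPKM in those libraries, at 14.18 to 18 FPKM in KO replicates 1 to 4 and at 20.13 to 27.48 FPKM in WT, and its part in the levels of the 9 genes was not tested. Each library's FPKM added up to 255538 to 281432, and the number of reads behind them is unknown. Cth itself was near 0 in both genotypes, at 0 to 0.02 FPKM in KO and 0 to 0.08 FPKM in WT, so it does not check the labels. Of 10 contractile smooth muscle markers only Acta2 and Smtn were high enough to test. Acta2 was at 75.28 to 145.52 FPKM in KO and 111 to 140.4 FPKM in WT. Smtn was at 8.81 to 20.53 FPKM in KO and 11.77 to 13.89 FPKM in WT. Myh11, Tagln and Cnn1 reached at most 0.03, 1.32 and 0.24 FPKM in KO and 0.02, 0.37 and 0.03 FPKM in WT. The cell type is given here as labelled, and apart from Acta2 and Smtn these markers do not bear it out. In bulk RNA, fewer cells of a type and less RNA per cell cannot be told apart.

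The test was limma on log2(FPKM + 1) across 11831 genes, those that reached 1 FPKM in 6 or more libraries, with Benjamini-Hochberg adjustment over all of them. It called 63.5% of all genes tested, 32.6% higher and 30.9% lower in KO, at an adjusted p of 0.05. Of the 9 genes 7 were tested, and 6 of these were called, 4 higher and 2 lower in KO. Without KO replicates 5 and 6 all 7 were called, against 77.1% of all genes tested (39.9% higher and 37.1% lower). The KO and WT libraries did not overlap in 5 of the 7, against 46.4% of all genes tested. Called differences of at least 1 on the log2(FPKM + 1) scale were found in 4 of the 7, against 9.74% of all genes tested. Gpc6 was high enough to test only through its WT libraries, so it had to differ in order to be tested. It is included in each of these counts. The 2 genes below the limit for testing, Gpc2 and Gpc3, were compared between KO and WT by exact permutation of the library labels, two-sided, for which 0.00216 is the smallest possible p.

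**Figure D1:**
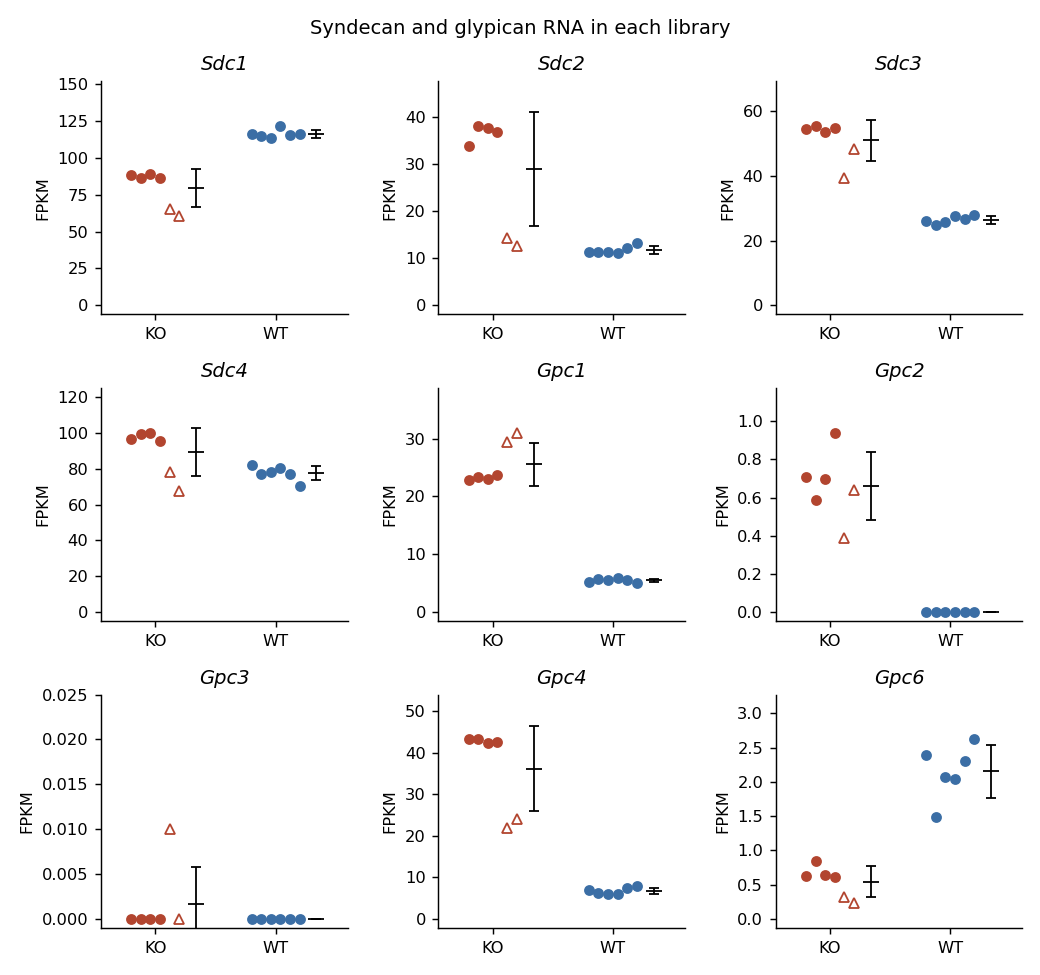
FPKM of each of the 9 genes in every library (vertical axes from 0, a separate scale for each gene), with KO libraries in red left of WT libraries in blue; open triangles are KO replicates 5 and 6, and the black mark and bars are the mean ± SD of 6 libraries. KO replicates 5 and 6 lie below KO replicates 1 to 4 in 6 of the genes and above them in Gpc1.

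Upstream sequence is shown for 3 genes. They are the syndecans Sdc1 and Sdc4 that change places and Gpc4, with the largest fold change of the tested syndecans and glypicans. Each line gives the 250 bases before the start of the gene as RefSeq places it in GRCm38.p6, read 5′ to 3′ on the strand of the gene. The gene spans printed further on are from GENCODE M21 and place the starts elsewhere. By those spans the Sdc4 and Gpc4 windows lie inside the gene, and the Sdc1 window runs into it. Capitals mark GC boxes, the letters GGGCGG on either strand, which are bound by Sp-family factors.
Sdc1, chr12:8771146-8771395, plus strand: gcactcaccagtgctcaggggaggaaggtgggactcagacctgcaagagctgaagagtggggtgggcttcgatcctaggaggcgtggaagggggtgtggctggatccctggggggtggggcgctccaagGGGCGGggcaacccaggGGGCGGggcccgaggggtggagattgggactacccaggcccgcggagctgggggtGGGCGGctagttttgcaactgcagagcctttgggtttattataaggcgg
Sdc4, chr2:164443189-164443438, minus strand: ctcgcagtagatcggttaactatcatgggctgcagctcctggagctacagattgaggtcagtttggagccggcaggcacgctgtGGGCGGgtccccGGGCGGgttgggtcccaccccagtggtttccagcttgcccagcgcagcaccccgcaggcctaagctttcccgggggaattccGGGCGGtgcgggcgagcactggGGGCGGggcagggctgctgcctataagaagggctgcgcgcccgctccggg
Gpc4, chrX:52164924-52165173, minus strand: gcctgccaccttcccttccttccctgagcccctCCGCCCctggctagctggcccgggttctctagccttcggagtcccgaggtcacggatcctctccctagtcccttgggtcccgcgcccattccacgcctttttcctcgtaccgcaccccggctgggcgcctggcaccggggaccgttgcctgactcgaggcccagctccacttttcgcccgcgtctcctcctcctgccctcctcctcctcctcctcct
RefSeq upstream sequence was used for 6 of the 9 genes, the others being Sdc2, Gpc1 and Gpc6. By the GENCODE spans the Gpc2 window also runs into its gene. GC boxes stood in all 6 windows, 3 in Sdc1, 3 in Sdc3, 4 in Sdc4, 3 in Gpc2, 3 in Gpc3 and 1 in Gpc4, while 32.7% of 32851 mouse windows of this length hold at least 1. The 6 windows were also rich in G and C, at 66 to 76.4%, against a median of 52.4% over all windows. The share of windows with GC boxes was not compared at like G and C content. None of the 6 windows held TATAAA (12.4% of all windows), the AP-1 letters TGANTCA (6.75%) or the E-box CACGTG (6.02%), each searched on both strands, so no motif overlapped another. Genes that were higher in KO, lower in KO and not detected were alike in holding GC boxes. A match describes these letters in this window and is not evidence of binding.

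Sdc1, the syndecan best known from epithelia and plasma cells, was the only syndecan that fell. Its gene lies on chromosome 12 from 8771323 to 8793715 on the plus strand of GRCm38 (GENCODE M21), and no other annotated gene overlaps it. KO libraries held 60.68 to 89.25 FPKM with a median of 86.0, and WT libraries 113.54 to 121.58 FPKM with a median of 115.6. All 6 KO libraries were below all 6 WT libraries, and KO replicates 5 and 6, at 65.01 and 60.68 FPKM, were the lowest. The mean was 79.2 ± 12.8 FPKM in KO and 116.2 ± 2.84 FPKM in WT (SD, n = 6 each), a difference of -0.56 ± 0.096 (SE) in log2(FPKM + 1) with a limma adjusted p of 0.000185. Without KO replicates 5 and 6 the difference was -0.41 (limma adjusted p = 1.7e-08).

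Sdc4, which gathers at focal adhesions and activates protein kinase C alpha there, showed no difference that passed the test over all libraries. The gene spans 164424247 to 164443887 of chromosome 2, minus strand. KO libraries held 67.67 to 100.09 FPKM with a median of 96.0, and WT libraries 70.27 to 81.97 FPKM with a median of 77.6. KO replicates 1 to 4, at 95.60 to 100.09 FPKM, were above every WT library, while KO replicate 5 at 78.06 lay within the WT range and KO replicate 6 at 67.67 below it. Over all libraries the difference was 0.19 on the log2(FPKM + 1) scale, with a 95% confidence interval of -0.01 to 0.40 (limma adjusted p = 0.0873). Sdc4 passed with KO replicates 1 to 4 only (difference 0.34, limma adjusted p = 5.3e-06). Leaving out KO replicate 5 alone gave 0.23 (adjusted p = 0.047) and leaving out KO replicate 6 alone 0.27 (adjusted p = 0.003), so the outcome for this gene turned on those libraries. The q-value of Sdc4 in the authors' deposited table was 0.11.

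Although the level of each syndecan moved between KO libraries, the balance of Sdc4 to Sdc1 stayed within a narrow range in each genotype. The ratio of Sdc4 to Sdc1 FPKM within a library was 1.09 to 1.20 in KO and 0.606 to 0.704 in WT. It was 1.20 in KO replicate 5 and 1.12 in KO replicate 6, within the range of the other KO libraries or just above it, so Sdc4 exceeded Sdc1 in 6 KO libraries and in no WT library. Both genes had their lowest KO levels in replicates 5 and 6. The ratio is given as a description of the libraries, without a test.

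**Figure D2:**
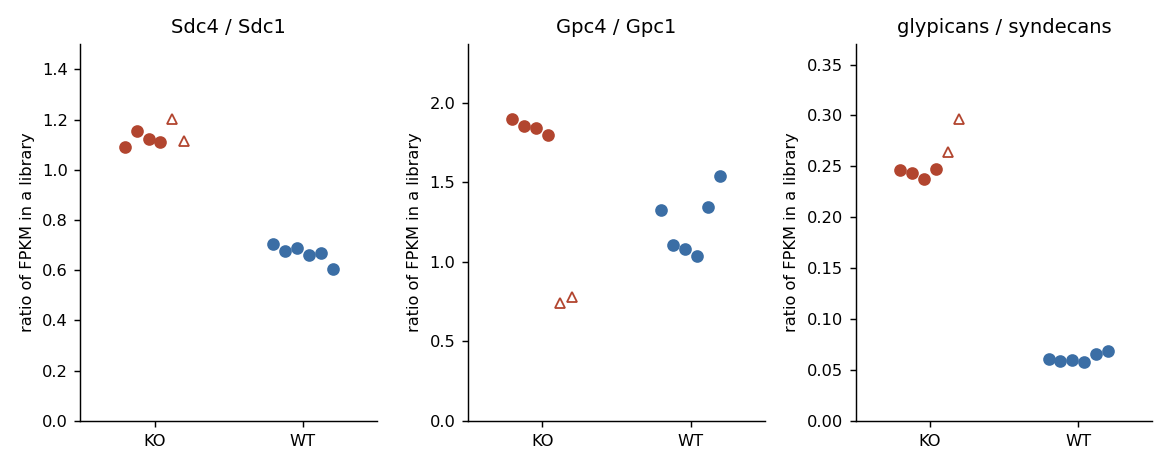
Ratio of FPKM within each library (vertical axes from 0) for Sdc4 over Sdc1, Gpc4 over Gpc1 and the summed glypicans over the summed syndecans, with KO libraries in red left of WT libraries in blue and KO replicates 5 and 6 as open triangles. Sdc4 over Sdc1 and glypicans over syndecans part the genotypes in every library, while Gpc4 over Gpc1 is 0.742 and 0.778 in KO replicates 5 and 6, about 1.80 or higher in the other KO libraries and 1.04 to 1.54 in WT.

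Sdc3, a syndecan with a long ectodomain known chiefly from the nervous system and muscle, rose in KO. It lies on chromosome 4 from 130792537 to 130826319 on the plus strand, where the antisense gene Gm12970 overlaps it at no more than 0.16 FPKM. KO libraries held 39.18 to 55.36 FPKM with a median of 54.0, and WT libraries 24.73 to 27.83 FPKM with a median of 26.4. The groups did not overlap, and KO replicates 5 and 6, at 39.18 and 48.29 FPKM, were the lowest of KO. The difference was 0.91 ± 0.081 (SE) on the log2(FPKM + 1) scale (limma adjusted p = 4e-07), and without KO replicates 5 and 6 it was 1.02 (adjusted p = 4.2e-11).

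Sdc2, the syndecan typical of mesenchymal cells, also rose, but in 4 of the 6 KO libraries. The gene spans 32920723 to 33034935 of chromosome 15, plus strand. KO replicates 1 to 4 held 33.84, 38.10, 37.64 and 36.84 FPKM, KO replicates 5 and 6 held 14.40 and 12.56 FPKM, and WT libraries held 11.14 to 13.34 FPKM with a median of 11.4. KO replicate 6 lay inside the WT range and KO replicate 5 just above it. The difference was 1.10 ± 0.26 (SE) on the log2(FPKM + 1) scale over all libraries (limma adjusted p = 0.00239). Without KO replicates 5 and 6 it was 1.56 (adjusted p = 4e-11). Leaving out KO replicate 5 alone gave 1.26.

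Summed over the 4 genes, syndecan RNA was 248.6 ± 43.3 FPKM in KO and 231.8 ± 5.25 FPKM in WT (SD, n = 6 each). The KO sums ran from 189.2 to 280.5 FPKM and spanned the WT sums of 227.4 to 240.5 FPKM. The make-up differed more clearly than the sum. Sdc1 held 31.9 ± 0.758% of the sum in KO and 50.1 ± 0.604% in WT, and Sdc3 held 20.7 ± 2.37% in KO and 11.4 ± 0.49% in WT. Sdc2 held 6.64 to 13.7% in KO and 4.63 to 5.87% in WT, and Sdc4 35.0 to 39.7% in KO and 30.9 to 34.8% in WT.

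**Figure D3:**
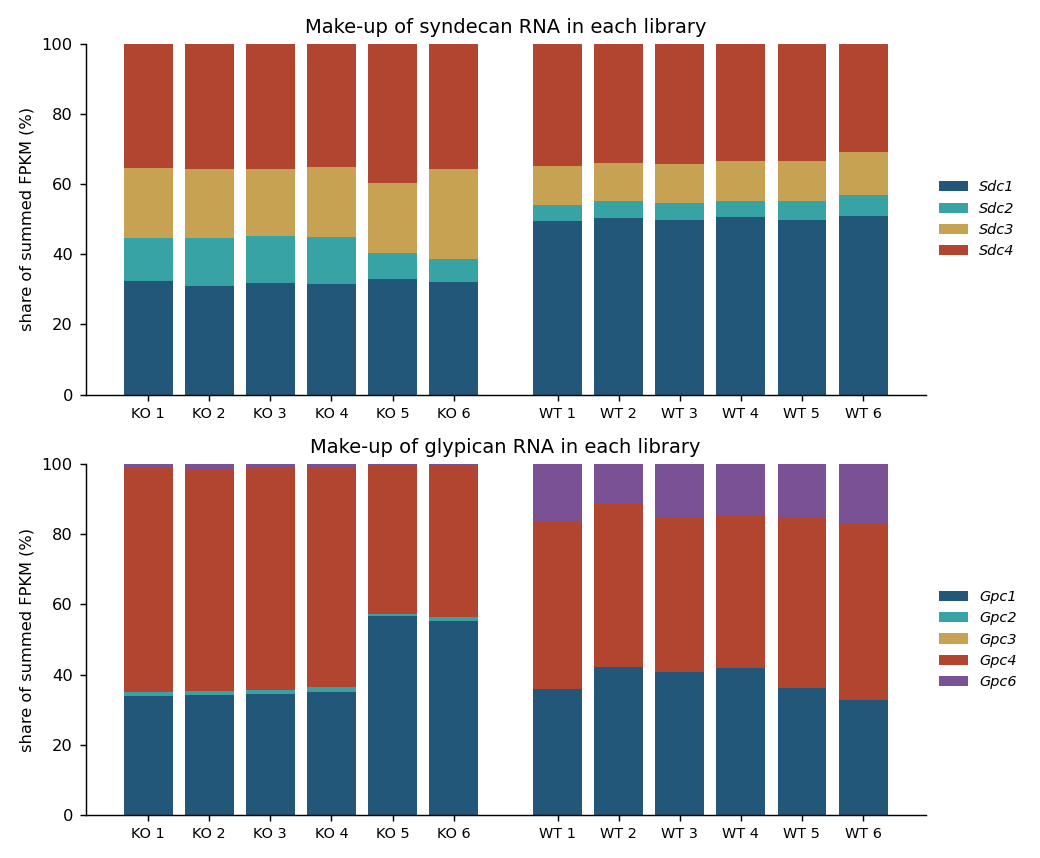
Share of each gene in the summed FPKM of the 4 syndecans (top) and of the 5 glypicans (bottom), in percent, for each KO library (left) and each WT library (right). Sdc1 makes up 30.9 to 33.1% of syndecan RNA in KO and 49.4 to 51.0% in WT; Gpc6 makes up 0.41 to 1.24% of glypican RNA in KO and 11.1 to 16.8% in WT.

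Gpc1, the glypican known as a co-receptor for fibroblast and vascular endothelial growth factors, rose in all KO libraries. It lies on chromosome 1 from 92831645 to 92860779 on the plus strand, and the gene Ankmy1, which overlaps it on the other strand, reached at most 0.06 FPKM. KO libraries held 22.78 to 31.03 FPKM with a median of 23.5, and WT libraries 5.1 to 5.88 FPKM with a median of 5.52. The groups did not overlap, and KO replicates 5 and 6, at 29.45 and 31.03 FPKM, were the highest. This is the reverse of their place in the other called syndecans and glypicans. The difference was 2.02 ± 0.082 (SE) on the log2(FPKM + 1) scale (limma adjusted p = 1.6e-10), and without KO replicates 5 and 6 it was 1.901 (adjusted p = 4e-13). The mean level was 25.5 ± 3.69 FPKM in KO and 5.48 ± 0.295 FPKM in WT (SD, n = 6 each).

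Gpc4, a glypican that binds Wnt ligands and fibroblast growth factors, had the largest difference of the tested syndecans and glypicans. It spans 52053021 to 52165252 of the X chromosome, minus strand. KO libraries held 21.84 to 43.17 FPKM with a median of 42.4, and WT libraries 6 to 7.85 FPKM with a median of 6.57. KO replicates 1 to 4 were nearly equal at 42.35 to 43.17 FPKM, and KO replicates 5 and 6, at 21.84 and 24.13 FPKM, were lower but above every WT library. The difference was 2.22 ± 0.17 (SE) on the log2(FPKM + 1) scale (limma adjusted p = 1.2e-07). Without KO replicates 5 and 6 it was 2.51 (adjusted p = 3.1e-12). Xist, the RNA of the inactive X chromosome, was at 2.31 to 3.53 FPKM in KO replicates 1 to 4, at 0.31 and 0.63 in KO replicates 5 and 6 and at 0.01 to 0.04 in WT; the Y-linked genes Ddx3y, at 3.49 to 6.78 FPKM in KO and 9.87 to 11.81 in WT, and Kdm5d, at 0.98 to 1.38 FPKM in KO and 2.86 to 3.05 in WT, were lower in every KO library than in every WT library. The part of these differences in the level of this X-linked gene was not tested.

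Gpc3, known as an inhibitor of hedgehog signalling and of growth, is the next gene of the family on the X chromosome, from 52272426 to 52613950 on the same strand and 107173 bases from Gpc4. It was listed at 0 in 5 KO libraries and in all 6 WT libraries, and at 0.01 FPKM in KO replicate 5 (exact permutation p = 1, two-sided, n = 6 each). The high level of Gpc4 in KO was thus not shared by its neighbour.

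Gpc6, a glypican of mesenchymal tissue whose loss in humans causes a skeletal dysplasia, was the only glypican that fell. The gene, on the plus strand of chromosome 14, spans 116925315 to 117976544. KO libraries held 0.23 to 0.84 FPKM with a median of 0.62, and WT libraries 1.49 to 2.62 FPKM with a median of 2.19. The groups did not overlap, and KO replicates 5 and 6, at 0.32 and 0.23 FPKM, were the lowest. The difference was -1.03 ± 0.11 (SE) on the log2(FPKM + 1) scale, which understates the change at this level. With 0.1 added in place of 1 it was -1.87. Gpc6 reached 1 FPKM in WT libraries only, so its fall was a condition of being tested and no p is given. Without KO replicates 5 and 6 the difference was -0.90 on the log2(FPKM + 1) scale.

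Gpc2, a glypican of the developing nervous system, was low. The gene, on the minus strand of chromosome 5, spans 138273655 to 138280005. KO libraries held 0.39 to 0.94 FPKM with a median of 0.67, and all 6 WT libraries were listed at 0, so no fold change is given (exact permutation p = 0.00216, two-sided, n = 6 each, the smallest this design allows, unadjusted). The gene model Gm43720 overlaps Gpc2 on the same strand and averaged 0.263 FPKM in KO and 0.025 FPKM in WT, so how reads were divided between them is uncertain.

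Summed over the 5 genes, glypican RNA was 62.9 ± 7.03 FPKM in KO and 14.4 ± 0.852 FPKM in WT (SD, n = 6 each), with ranges of 52.0 to 67.9 FPKM and 13.4 to 15.6 FPKM. Although Gpc4 and Gpc1 moved in opposite directions between KO replicates 5 and 6 and the other KO libraries, Gpc4 and Gpc1 together held most of the sum in every library of both genotypes. The share of Gpc4 was 42.0 to 64.2% in KO and 43.4 to 50.4% in WT, and that of Gpc1 33.9 to 56.6% in KO and 32.8 to 42.2% in WT. The ratio of summed glypicans to summed syndecans was 0.238 to 0.296 in KO and 0.0583 to 0.0685 in WT.

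**Figure D4:**
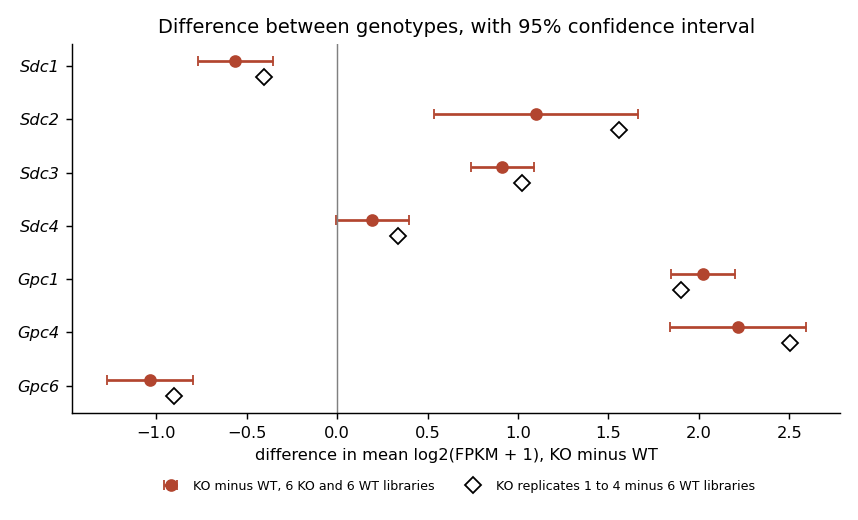
Difference in mean log2(FPKM + 1), KO minus WT, for the 7 tested genes (horizontal axis), with red points and bars for the estimate and its 95% confidence interval over 6 KO and 6 WT libraries and open diamonds for KO replicates 1 to 4 against 6 WT libraries. Gpc4 at 2.22 and Gpc1 at 2.02 lie farthest to the right, Gpc6 at -1.03 farthest to the left, and the interval of Sdc4 includes 0.

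The order of levels within a genotype can be read from FPKM, which is scaled by length. In KO it ran Sdc4, Sdc1, Sdc3, Gpc4, Sdc2, Gpc1, Gpc2 and Gpc6, where Gpc4 at 36.2 ± 10.3 FPKM passed Sdc2 at 28.9 ± 12 FPKM (SD, n = 6 each). Only the steps from Sdc1 to Sdc3 and from Gpc1 to Gpc2 were free of overlap between neighbours of that order, and the ranges of the other neighbours overlapped. Within each KO library, however, Sdc4 was above Sdc1, Sdc3 above Gpc4 and Gpc4 above Sdc2. Gpc1 was above Sdc2 in KO replicates 5 and 6 only, and Gpc6 above Gpc2 in KO replicate 2 only. In WT it ran Sdc1, Sdc4, Sdc3, Sdc2, Gpc4, Gpc1 and Gpc6, and the ranges of neighbours in this order did not overlap in any case.

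For Sdc1, whose mean over the 12 libraries was the highest of the 9 genes, the 5 tested genes with the most similar levels were Anxa8, Slc7a2, Cdk5rap3, Ctsh and Smim10l1, with Pearson r of 0.993 to 0.996 on log2(FPKM + 1) over 12 libraries. Anxa8, an annexin, held 197 to 309 FPKM in KO and 453 to 481 FPKM in WT, and Slc7a2, a cationic amino acid transporter, 11.98 to 40.75 FPKM in KO and 90.6 to 102 FPKM in WT. The 12 points share the split by genotype and that between KO replicates 5 and 6 and the rest, and 476 of 11830 genes reached an r of 0.95 with Sdc1.

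In the authors' deposited table, whose ratio is WT over KO, 5 of the 9 genes were marked significant, namely Sdc2, Gpc1, Gpc2, Gpc4 and Gpc6. The share of all genes marked there was not worked out, so whether this count is unusual cannot be told. Among the marked genes, Gpc2 was not detected in WT libraries, and Gpc6 reached the limit for testing in WT libraries only. Sdc1 and Sdc3 were not marked, although their q-values in the authors' deposited table are written as 0.0; their log2 ratios there were 0.55 and -0.95. Gpc3 had a q-value of 0.82 there.

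Among enzymes that build and modify the heparan sulfate chains of these proteins, rises outnumbered falls. Of 24 tested, 14 rose, Hpse fell and 9 did not pass, with a median difference of 0.33 on the log2(FPKM + 1) scale against 0.01 over all genes tested. These calls came to 62.5% of the list, against 63.5% of all genes tested, of which 32.6% were higher and 30.9% lower in KO. The counts were 17 higher and 1 lower without KO replicates 5 and 6, 75% of the list against 77.1% of all genes. Papss2, which makes the sulfate donor, was at 10.7 ± 0.722 FPKM in KO and 3.33 ± 0.273 FPKM in WT, and Ext1, a subunit of the chain polymerase, at 31.8 ± 1.42 FPKM in KO and 16.6 ± 1.02 FPKM in WT (limma adjusted p = 2.2e-10 and 8.1e-09). Hs3st1, a 3-O-sulfotransferase, was at 4.72 ± 1.92 FPKM in KO and 0.105 ± 0.0804 FPKM in WT. No WT library reached 1 FPKM for Hs3st1, so it had to differ in order to be tested, as did 567 of the 11831 genes tested, and no p is given for such genes in the lists that follow.

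Genes of proteins that bind syndecan tails or act with them moved both ways. Of 22 tested, 9 rose, 7 fell and 6 did not pass, with a median difference of 0.05. The called share was 72.7%, against 63.5% of all genes tested. Of these genes 12 were higher and 8 lower without KO replicates 5 and 6, or 90.9% called against 77.1%. Prkca, the kinase that Sdc4 activates, fell to 6.74 ± 0.517 FPKM in KO, against 18.0 ± 0.718 FPKM in WT (limma adjusted p = 2.7e-10). Ezr, the membrane to actin linker ezrin, fell to 42.3 ± 8.36 FPKM in KO, against 103 ± 3.13 FPKM in WT (adjusted p = 8.7e-08). Pip5k1c, which makes phosphatidylinositol bisphosphate at adhesions, rose 3.26-fold to 25.6 ± 2.7 FPKM (adjusted p = 3.9e-10). Sdcbp, syntenin, the PDZ protein that binds all syndecan tails, was at 16.9 ± 3.58 FPKM in KO and 17.1 ± 0.43 FPKM in WT (adjusted p = 0.79), a gene added to the named ones after its values were seen.

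Genes whose products cut syndecans or glypicans from the surface, activate such proteases or inhibit them also moved both ways. Of 13 tested, 8 rose, 3 fell and 2 did not pass, with a median difference of 0.67. These counts were also 8 and 3 without KO replicates 5 and 6. In either case 84.6% of the list was called, against 63.5% of all genes over all libraries and 77.1% without those replicates. Mmp3, stromelysin 1, was at 649 ± 346 FPKM in KO and 26.3 ± 2.58 FPKM in WT (limma adjusted p = 6.1e-07), with 229 and 179 FPKM in KO replicates 5 and 6 beside 833 to 918 FPKM in the other KO libraries. Timp3, an inhibitor of sheddases, was at 218 ± 35.2 FPKM in KO and 90.0 ± 2.23 FPKM in WT, and Furin, the convertase that cleaves glypican precursors, at 11.9 ± 1.01 FPKM in KO and 6.53 ± 0.273 FPKM in WT (adjusted p = 4.6e-08 and 1.2e-07). Proteases and an inhibitor thus rose in the same list. The 3 that fell were Mmp16, Adam10 and Hpse; Mmp16 reached 1 FPKM in WT libraries only, so its fall was a condition of being tested.

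Ligands that bind heparan sulfate moved both ways. Of 21 tested, 9 rose, 6 fell and 6 did not pass, with a median difference of -0.01. The called share was 71.4%, against 63.5% of all genes tested. Leaving out KO replicates 5 and 6 gave 10 higher and 9 lower, 90.5% called against 77.1% of all genes. Of the 9 that rose, 4 (Fgf10, Pdgfb, Wnt5a and Slit3) reached 1 FPKM in KO libraries only and had to differ in order to be tested. Fgf10, a growth factor that depends on heparan sulfate, was at 3.54 ± 0.208 FPKM in KO and 0.00667 ± 0.0103 FPKM in WT, the matrix protein Tnc at 72.4 ± 9.56 FPKM in KO and 8.85 ± 0.539 FPKM in WT, and Bmp4 at 10.4 ± 1.14 FPKM in KO and 64.6 ± 3.57 FPKM in WT (limma adjusted p = 3.8e-12 for Tnc and 2.7e-12 for Bmp4).

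Of 14 tested receptors that act with heparan sulfate, 7 rose, 5 fell and 2 did not pass, with a median difference of 0.16. The called share was 85.7%, against 63.5% of all genes tested. Leaving out KO replicates 5 and 6 gave 8 higher and 5 lower, 92.9% called against 77.1% of all genes. Egfr was at 20.9 ± 2.12 FPKM in KO and 8.54 ± 0.412 FPKM in WT, and Met, the receptor of hepatocyte growth factor, at 18.1 ± 2.51 FPKM in KO and 40.0 ± 1.01 FPKM in WT (limma adjusted p = 6.1e-09 and 7.1e-08). Gas1, a hedgehog co-receptor, was at 36.7 ± 15.1 FPKM in KO and 0.0183 ± 0.016 FPKM in WT. Gas1 and Boc reached 1 FPKM in KO libraries only, so their rise was a condition of being tested.

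Proteoglycans outside both families moved both ways. Of 7 tested, Col18a1 rose, 3 fell and 3 did not pass, with a median difference of -0.31. The called share was 57.1%, below the 63.5% of all genes tested. Leaving out KO replicates 5 and 6 gave 2 higher and 5 lower, all 7 being called, against 77.1% of all genes. Col18a1, a basement membrane collagen with heparan sulfate chains, was at 6.61 ± 1.24 FPKM in KO and 1.59 ± 0.126 FPKM in WT. Cspg4, which carries chondroitin sulfate, was at 0.427 ± 0.0585 FPKM in KO and 2.31 ± 0.217 FPKM in WT, and Nrp1 at 14.4 ± 1.56 FPKM in KO and 22.3 ± 0.836 FPKM in WT (limma adjusted p = 3.1e-08 for Col18a1 and 4.4e-06 for Nrp1). Cspg4 reached 1 FPKM in WT libraries only, so it had to fall in order to be tested. Hspg2, perlecan, was at 59.7 ± 13.0 FPKM in KO and 70.3 ± 3.5 FPKM in WT (adjusted p = 0.087).

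**Figure D5:**
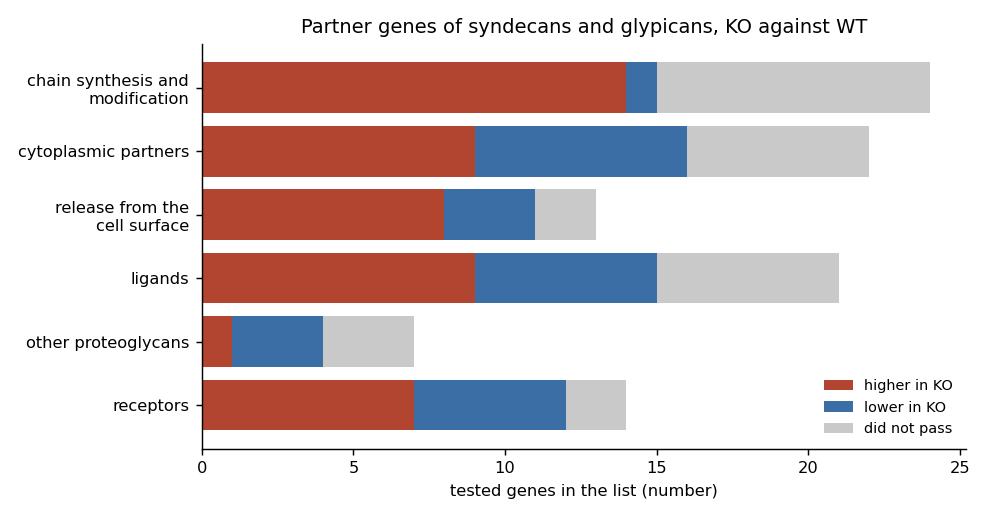
Number of tested genes (horizontal axis, from 0) that were higher in KO (red), lower in KO (blue) or did not pass the test (grey) in 6 lists of genes that make, bind, release or act with heparan sulfate proteoglycans. The list for chain synthesis and modification holds 14 genes higher and 1 lower in KO among 24.

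The contractile markers Acta2 and Smtn did not pass over all libraries, or 0% called, against 63.5% of all genes tested. Both were lower in KO without KO replicates 5 and 6 (limma adjusted p = 3.9e-06 and 1.5e-06), or 100% called against 77.1%. Some markers of other cell types differed between the genotypes as well. Of 10 fibroblast markers 6 were tested, of which 3 rose and 1 fell. The counts were 5 higher and 1 lower without KO replicates 5 and 6. The called share was 66.7%, against 63.5% of all genes tested, and 100% against 77.1% without those replicates. Col3a1 and Dpt reached 1 FPKM in KO libraries only, so their rise was a condition of being tested. The summed level of the list was 505 to 1275 FPKM in KO and 831 to 880 FPKM in WT. Lum and Pi16 stayed below 0.1 FPKM throughout. Col3a1 was at 141 to 155 FPKM in KO replicates 1 to 4 and at 19.6 and 25.3 FPKM in KO replicates 5 and 6. WT libraries were at 0.593 ± 0.0948 FPKM (SD, n = 6), so KO replicates 5 and 6 lay between the other KO libraries and WT. Dpt and Pdgfra were placed likewise, and Col1a1, Col1a2 and Dcn were not. Col1a2 was at 201 to 222 FPKM in KO replicates 1 to 4, against 290 to 309 FPKM in WT. KO replicates 5 and 6, at 79.3 and 98.9 FPKM, were lower still. Dcn in KO replicates 5 and 6, at 26.7 and 22.1 FPKM, lay below WT, at 62.25 to 79.26 FPKM. Gpc4 and Sdc3 also had KO replicates 5 and 6 between the other KO libraries and WT. For Sdc2 only KO replicate 5 lay between them. For Sdc1, Gpc1 and Gpc6, KO replicates 5 and 6 lay farther from WT than the other KO libraries did. Of the 9 epithelial markers in the table Cdh1 and Krt19 were tested and both fell. That is 100% called with or without KO replicates 5 and 6, against 63.5% and 77.1% of all genes. Their summed list was 40.3 to 59.7 FPKM in KO and 140 to 148 FPKM in WT. Cdh1 was at 0.86 ± 0.314 FPKM in KO and 65.0 ± 1.69 FPKM in WT (limma adjusted p = 1.2e-13). Krt19 was at 50.1 ± 6.25 FPKM in KO and 78.5 ± 3.54 FPKM in WT (limma adjusted p = 9.4e-06). Epcam averaged 0.0533 FPKM in KO and 0.065 FPKM in WT. Leukocyte markers summed to 41.4 to 57.4 FPKM in KO and 39.1 to 47.7 FPKM in WT, most of it Cd14, with Ptprc at 0.015 FPKM on average in either genotype. Of 3 leukocyte markers tested 2 rose, or 66.7% called, against 63.5% of all genes. Without KO replicates 5 and 6 all 3 were higher, while 77.1% of all genes were called. Cd68 was at 8.19 ± 2.62 FPKM in KO and 1.62 ± 0.305 FPKM in WT. Csf1r was at 3.05 ± 0.326 FPKM in KO and 0.707 ± 0.0924 FPKM in WT. Csf1r reached 1 FPKM in KO libraries only, so its rise was a condition of being tested. Endothelial markers summed to at most 1.78 FPKM in KO and 0.78 FPKM in WT, and Cdh5 was at no more than 0.01 FPKM in either. None was high enough to test; Kdr was at 0.4 to 0.81 FPKM in KO and 0 to 0.01 FPKM in WT, and Erg at 0.09 to 0.2 FPKM in KO and 0 in WT. Mesothelial markers summed to 50.3 to 76.3 FPKM in KO and 85.0 to 95.8 FPKM in WT, most of it Krt19, which is also in the epithelial list. Of 6 tested 3 rose (Upk3b, Wt1 and Upk1b) and 2 fell (Krt19 and Msln). The called share was 83.3% with or without KO replicates 5 and 6, against 63.5% and 77.1% of all genes. Upk3b and Wt1 reached 1 FPKM in KO libraries only, so their rise was a condition of being tested. The part of such cells in the levels of syndecans and glypicans was not tested.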

How the data were processed

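Polyadenylated RNA was sequenced in 12 libraries from paired ends after dUTP marking of strand, per the labels' protocols. The authors deposited FPKM values to 2 decimals, together with their own comparison as a ratio, a log2 ratio, p-values and q-values, per the file headers; neither the test behind these nor the use of strand in counting is stated. Tools listed without roles in the submitters' processing notes are StringTie 1.3.4d, HISAT2 2.0.4, cutadapt 1.9, edgeR and DESeq2, with mm9 as build. Positions are those of GRCm38, matched by gene ID.

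The table holds no counts, so log2(FPKM + 1) was fitted with limma 3.58.1 in R 4.3.3 over the 12 libraries, KO minus WT, with a variance trend and no covariate. The test was checked on simulated data. Same-numbered KO and WT libraries did not deviate together, so numbers were not used as a block. Named genes are the 9 syndecans and glypicans, up to 3 called genes of each list with the smallest adjusted p, the 5 genes most like Sdc1, Cth and Xist; markers, genes that complete small counts and any others were named after their values were seen. The genes and lists were chosen with earlier results of these data known. No p is given for sums, shares or ratios over the 9 genes.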

Additional observations from a re-analysis of the deposited data

Results flagged for a closer look

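In 2 of 16 groups of libraries 1 value lay far from the other 5, by Dixon's test; chance gives about 1 in 20. Sdc1 was at 121.58 FPKM in WT replicate 4, above 113.54 to 116.39 in the other WT libraries. Gpc3 was at 0.01 FPKM in KO replicate 5, the smallest value above 0 that the table can hold. The pair of KO libraries that stand apart, replicates 5 and 6, cannot be found by a test for 1 stray value.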

How the results depend on the processing

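Across 22 alternatives no difference of a syndecan or glypican changed direction, and no call was lost where a value could be had; 182 of 187 values kept their side of the threshold. The other 5 were Sdc4, which passed with TPM scaling (difference 0.22, adjusted p = 0.037), with weights per library (0.32, adjusted p = 1.7e-06), and when KO replicate 5, KO replicate 6 or both were left out; its adjusted p ran from 1.7e-06 to 0.42. The values that kept their side include 17 for Gpc2, 17 for Gpc3 and 21 for Gpc6, which had little room to move. Gpc2 was listed at 0 in all WT libraries, Gpc3 was at or near 0 throughout, and Gpc6 had to differ in order to be tested. Between 5 and 7 genes of the families were called, 6 or 7 with any 1 library left out. Over all genes the count of calls was 7515 and was 7121 to 8105 with any 1 library left out. It was 4775.0 of 7244 with a minimum of 5 FPKM, where fewer genes were tested and Gpc6 had no value. With quantile normalization 45.5% of called genes were higher in KO, beside 51.3% as deposited. Same-numbered libraries of the genotypes correlated at -0.273 to -0.058 in their deviations, and no KO library correlated best with its own number; with the replicate number as a block 6959.0 genes and 6 of the families were called. Of the tested syndecans and glypicans Sdc2 and Gpc6 moved most: Sdc2 from 1.00 without KO replicate 2 to 1.57 with weights per library, and Gpc6 to -1.87 with a pseudocount of 0.1. Depth in reads is unknown, which limits Gpc2, Gpc3 and Gpc6.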
